A study of Homo sapiens with 18 samples.

Results

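The genes that encode GABA-A receptor subunits and glutamate receptors were examined by chromatin immunoprecipitation sequencing (ChIP-seq). The cells were MDA-MB-231, an established human line derived from a triple-negative tumour of the breast, with mesenchymal features. Members were all protein-coding genes of chromosomes 1 to 22 with a symbol of the form GABR, GRIA, GRIK, GRIN, GRID or GRM, which gave 41 of 19122 genes. They comprised 16 GABA-A receptor genes and 25 glutamate receptor genes, the latter split into 3 AMPA, 5 kainate, 7 NMDA, 2 delta and 8 metabotropic receptor genes. The rule used names only and no measured value, though earlier results of these data were known when it was chosen. In unmodified parental cells, libraries were made for KDM2B, MYC, ATF4, H3K4me3, H3K27me3, H2AK119ub and input DNA. In cells that carried an empty vector, libraries were made for H3K27ac and input DNA. The 18 libraries formed 9 groups of 2, and 1 peak list for each of 6 targets was used. No value below therefore has a replicate error, no test was made, and H3K27ac came from another stock of cells than the other targets. ATF4 was not analysed here. The sources used here do not say whether paired libraries were grown as separate cultures.

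Fast inhibition in the brain runs through GABA-A receptors, chloride channels assembled from alpha, beta, gamma, delta, pi or rho subunits. Fast excitation runs through the AMPA, kainate and NMDA receptors, which are cation channels, while the metabotropic receptors signal through G proteins. These genes are used mainly in neurons, and some also in epithelia. H3K4me3 and H3K27ac mark active promoters, and H3K27ac also marks active enhancers. H3K27me3, deposited by the Polycomb complex PRC2, and H2AK119ub, deposited by PRC1, go with silent developmental and tissue-specific genes. KDM2B binds unmethylated CpG DNA and recruits a variant PRC1 complex, and MYC is a transcription factor found at active promoters.

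Sequences immediately before annotated starts are printed for members that stand for the main chromatin states, with each CG dinucleotide in capitals, since KDM2B recognises unmethylated CG. They are the 250 bases upstream of the start, 5′ to 3′ on the strand of the gene, from RefSeq on GRCh38.p14 (hg38). The first set belongs to GRIK2, GRM8 and GRIK4, whose starts at the record end carried H3K4me3 and H3K27ac and no H3K27me3. All 3 are rich in CG, with 25, 32 and 44 of them.
GRIK2, chr6:101393458-101393707, plus strand: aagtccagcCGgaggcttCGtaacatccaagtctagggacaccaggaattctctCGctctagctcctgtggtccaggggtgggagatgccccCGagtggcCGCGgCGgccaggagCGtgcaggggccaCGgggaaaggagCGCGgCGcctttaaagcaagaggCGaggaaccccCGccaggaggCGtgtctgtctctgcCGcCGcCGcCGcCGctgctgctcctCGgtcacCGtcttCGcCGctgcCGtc
GRM8, chr7:127252942-127253191, minus strand: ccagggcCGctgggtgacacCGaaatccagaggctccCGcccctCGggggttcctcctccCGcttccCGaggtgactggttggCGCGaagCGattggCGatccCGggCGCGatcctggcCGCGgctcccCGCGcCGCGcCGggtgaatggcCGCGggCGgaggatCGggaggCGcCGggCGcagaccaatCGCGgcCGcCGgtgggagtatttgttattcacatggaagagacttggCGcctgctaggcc
GRIK4, chr11:120511498-120511747, plus strand: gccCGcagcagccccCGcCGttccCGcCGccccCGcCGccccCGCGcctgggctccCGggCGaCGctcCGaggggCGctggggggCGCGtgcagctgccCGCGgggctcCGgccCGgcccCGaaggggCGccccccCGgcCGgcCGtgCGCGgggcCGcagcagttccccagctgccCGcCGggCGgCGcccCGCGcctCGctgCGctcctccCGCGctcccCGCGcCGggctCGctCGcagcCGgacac
The second set belongs to members under H3K27me3, the CG-rich start of GRIK3 with 29 CG and the CG-poor start of GABRA6 with 3.
GRIK3, chr1:37034516-37034765, minus strand: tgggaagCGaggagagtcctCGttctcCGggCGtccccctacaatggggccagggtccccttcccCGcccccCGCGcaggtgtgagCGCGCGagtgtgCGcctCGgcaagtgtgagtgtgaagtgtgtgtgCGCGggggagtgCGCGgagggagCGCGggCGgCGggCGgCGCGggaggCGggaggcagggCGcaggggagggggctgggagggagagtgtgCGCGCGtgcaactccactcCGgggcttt
GABRA6, chr5:161685471-161685720, plus strand: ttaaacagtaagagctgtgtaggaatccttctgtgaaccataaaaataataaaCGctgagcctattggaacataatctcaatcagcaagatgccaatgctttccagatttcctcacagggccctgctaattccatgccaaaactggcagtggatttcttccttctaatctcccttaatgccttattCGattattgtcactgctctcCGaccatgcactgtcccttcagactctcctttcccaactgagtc
The last set had no peak of any list on it: the CG-rich starts of GABRA2 with 23 CG and GABRG3 with 20, and the start of GABRR3 with 1. GABRA2 had an H3K27me3 peak within 1 kb of its start, beyond the printed bases.
GABRA2, chr4:46390301-46390550, minus strand: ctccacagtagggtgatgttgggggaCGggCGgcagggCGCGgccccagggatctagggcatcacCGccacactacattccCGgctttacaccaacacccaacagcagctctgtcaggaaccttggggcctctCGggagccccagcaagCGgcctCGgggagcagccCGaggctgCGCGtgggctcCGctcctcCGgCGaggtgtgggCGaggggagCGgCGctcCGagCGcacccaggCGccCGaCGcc
GABRG3, chr15:26970931-26971180, plus strand: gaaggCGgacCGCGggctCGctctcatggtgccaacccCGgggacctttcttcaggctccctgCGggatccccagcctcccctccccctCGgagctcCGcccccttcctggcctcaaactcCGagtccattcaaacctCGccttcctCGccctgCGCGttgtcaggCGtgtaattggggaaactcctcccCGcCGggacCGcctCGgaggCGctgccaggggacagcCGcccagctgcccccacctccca
GABRR3, chr3:98035316-98035565, minus strand: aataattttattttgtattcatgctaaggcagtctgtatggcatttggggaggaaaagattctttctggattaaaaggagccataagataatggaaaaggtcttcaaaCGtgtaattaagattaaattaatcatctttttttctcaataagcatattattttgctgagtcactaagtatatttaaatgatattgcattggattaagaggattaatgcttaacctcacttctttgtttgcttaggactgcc

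Marks of active promoters were scarce at the receptor genes and H3K27me3 was common. A gene was counted at an end when at least 1 bp of a peak lay within 1 kb of either end of its RefSeq record. The start of a record below is the end from which the gene is read, and an annotated start of a transcript can lie further in. A fold given at an end is that of a peak within 1 kb of it, whose summit can lie further away. H3K4me3 was at an end of 12 of the 41 members, against 70.1% of all genes. H3K27ac was at an end of 6, against 64.4%, MYC of 8, against 65.0%, and KDM2B of 5, against 48.3%. In the other direction, H3K27me3 was at an end of 25 members, or 61.0%, against 27.1% of all genes. H2AK119ub was at an end of 22, or 53.7%, against 46.6%, which is near the background.

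Receptor genes are long, which bears on any count over a whole record. The median record was 147 kb among members, with 9.31 kb for GRIN3B as the shortest, and 24.5 kb among all genes, and 33 of 41 members reached 50 kb. Among the 6011 genes of at least 50 kb, the shares with a peak at an end were 54.4% (KDM2B), 70.0% (MYC), 74.3% (H3K4me3), 69.4% (H3K27ac), 35.9% (H2AK119ub) and 23.2% (H3K27me3). Among the 33 long members the counts were 3 (9.09%), 5 (15.2%), 9 (27.3%), 4 (12.1%), 14 (42.4%) and 19 (57.6%). Long members thus stood below long genes for the active marks and above them for H3K27me3, and H2AK119ub was near the background. Over whole records with 1 kb on either side, KDM2B was found in 8 members, against 54.7% of all genes, MYC in 17, against 73.7%, H3K4me3 in 25, against 78.0%, and H3K27ac in 19, against 72.6%. H2AK119ub was found in 29, against 60.2%, and H3K27me3 in 28, against 33.0%. For records of at least 50 kb, KDM2B was in 18.2% of members and 66.2% of genes, MYC in 42.4% and 86.2%, H3K4me3 in 63.6% and 91.1%, and H3K27ac in 51.5% and 86.7%. H3K27me3 was in 66.7% of long members and 33.8% of long genes, while H2AK119ub, in 63.6% and 59.4%, was near the background.

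**Figure D1:**
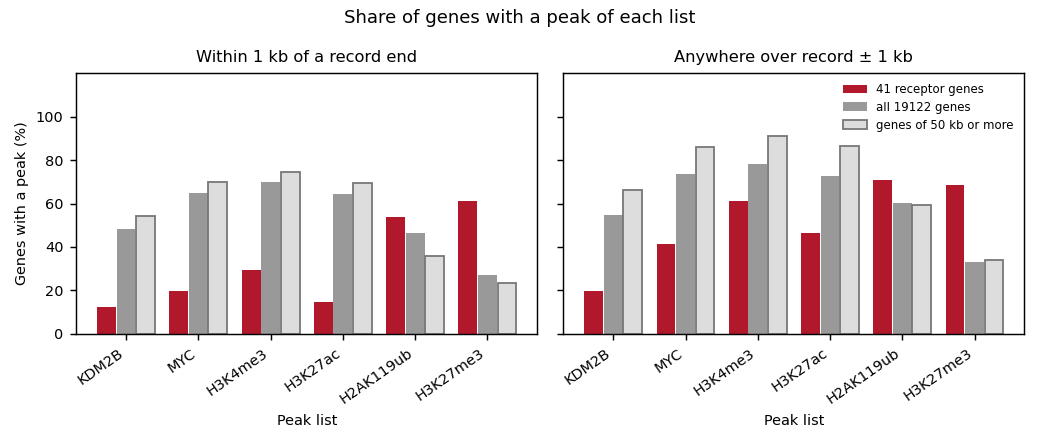
Share of genes in percent (vertical axis) with a peak of each list (horizontal axis), within 1 kb of a record end (left) and anywhere over the record with 1 kb on either side (right). Red bars are the 41 receptor genes of any length, grey bars all 19122 genes and light bars genes of at least 50 kb. The red bars are the lowest of each trio for KDM2B, MYC, H3K4me3 and H3K27ac, and the highest for H2AK119ub and H3K27me3.

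The marks were also read in combination at the ends. H2AK119ub or H3K27me3 was at an end of 30 members, against 51.5% of all genes. Polycomb marks with neither H3K4me3 nor H3K27ac at either end were found at 20 members, against 19.2% of all genes. MYC, H3K4me3 and H3K27ac were all absent from both ends of 29 members, against 27.6%. H2AK119ub and H3K27me3 lay at the same end of 16 members, against 21.5%, and H3K4me3 and H3K27me3 at the same end of 6 members, against 6.56%. Those 6 were GABRB2, GRIK4, GRIK5, GRIN1, GRIN2C and GRM4. In GRIK4 this was the far end, with H3K4me3 of fold 2.29 and H3K27me3 of up to 3.55, and its start had no H3K27me3. H3K4me3 and H3K27ac lay at the same end of 6 members, against 62.7%, and with MYC too at 5 of these, against 60.6%. Both ends were free of all 6 lists in 9 members, against 9.09% of all genes, among them GABRA5, GABRG3, GABRR3, GRIA2, GRIA4 and GRM5.

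**Figure D2:**
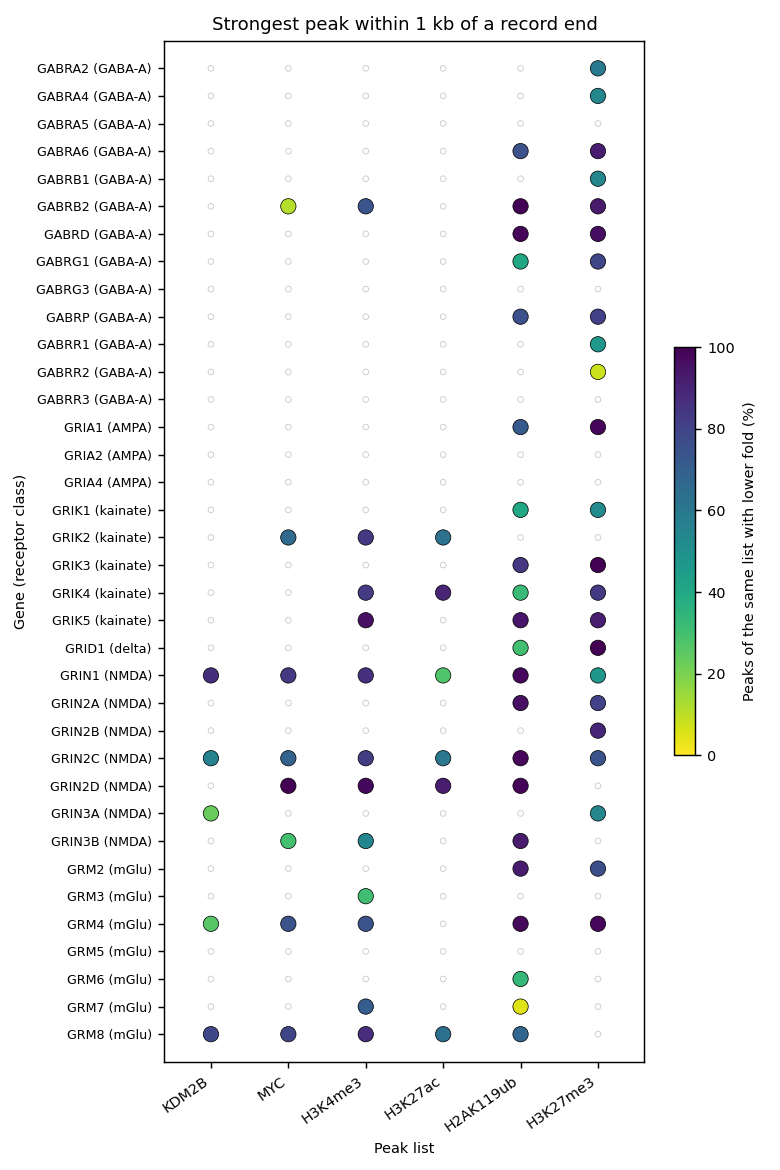
Strongest peak of each list (columns) within 1 kb of either record end of the receptor genes reported by name (rows, with receptor class). Colour gives the percent of peaks in the same list with a lower fold, and small open circles mean no peak. Filled circles crowd the H2AK119ub and H3K27me3 columns, and the GABA-A rows hold none for KDM2B or H3K27ac.

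At the ends of GABA-A receptor genes H3K27me3 was common and active marks were nearly absent. None of the 16 had KDM2B or H3K27ac at an end, against 48.3% and 64.4% of all genes, and none had a KDM2B peak anywhere over its record. H3K27me3 was at an end of 12 of them, against 27.1% of all genes. H2AK119ub was at an end of 6 (37.5%), below the 46.6% of all genes, and in each of these H3K27me3 lay at the same end. Among the 25 glutamate receptor genes, KDM2B was at an end of 5, H3K27ac of 6 (24.0%) and H3K4me3 of 11 (44.0%), below the shares of all genes of 48.3%, 64.4% and 70.1%. H2AK119ub was at an end of 16 (64.0%), against 46.6%, and H3K27me3 of 13 (52.0%), against 27.1%. These counts describe single lists, and neighbouring genes can share a domain, so the difference between the classes was not tested.

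Most GABA-A genes lie in clusters, and genes of different chromosomes differed from each other. On chromosome 5, GABRB2 (chr5:161288436-161548404), a beta subunit, and GABRA6 (chr5:161685721-161702592), an alpha subunit of cerebellar granule cells, were largely under H3K27me3. GABRB2 had 162 H3K27me3 peaks over 60.2% of its record and 36 H2AK119ub peaks over 4.87%. GABRA6 had 13 H3K27me3 peaks over 67.6% and 3 H2AK119ub peaks over 9.68%. No KDM2B or H3K27ac peak was found over either. Once peaks at most 3 kb apart were joined, GABRA6 lay within a 189 kb H3K27me3 domain, longer than 99.0% of such domains, and a 204 kb domain lay in GABRB2.

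The start of GABRB2 was the only GABA-A gene end with H3K4me3 or MYC. H3K4me3 had a fold of 8.75 there, above 74.2% of its list, and the MYC peak, 11 bp from the end, had a fold of 2.27. Fold here is the enrichment that the authors' peak caller gave, and it was compared only between peaks of 1 list. H2AK119ub reached 4.49, above 99.5% of its list, and H3K27me3 4.25 at the same end. All 4 were thus called within 1 kb of this start, and KDM2B and H3K27ac were not.

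The chromosome 4 cluster (chr4:46034769-47427447, 1393 kb) holds GABRG1, GABRA2, GABRA4 and GABRB1, and COX7B2, a gene outside the receptor families. H3K27me3 there came as 67 separate peaks over 1.64% of the region, and H2AK119ub as 2 peaks. Each of the 4 genes had an H3K27me3 peak at its start. The folds were 3.43 at GABRG1, 2.87 at GABRA2 and 2.76 at the peak that GABRA4 and GABRB1, which start side by side, share. Marking of this cluster was thus a scatter of narrow peaks, where GABRB2 and GABRA6 had long domains. GABRB1 also held 8 H3K27ac peaks inside its record, with a highest fold of 7.65.

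On chromosome 15, GABRA5 (chr15:26866719-26949208) and GABRG3 (chr15:26971181-27541984) had no H3K27me3 peak and no H2AK119ub peak. H3K4me3 was called 12 times in GABRG3, with a highest fold of 16.8, and H3K27ac 3 times, up to 6.72, none within 1 kb of a record end. GABRA5 had a single MYC peak, of 2.30, and no other. H3K27me3 thus covered 60.2% of GABRB2, 1.64% of the chromosome 4 cluster and 0% of GABRG3.

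**Figure D3:**
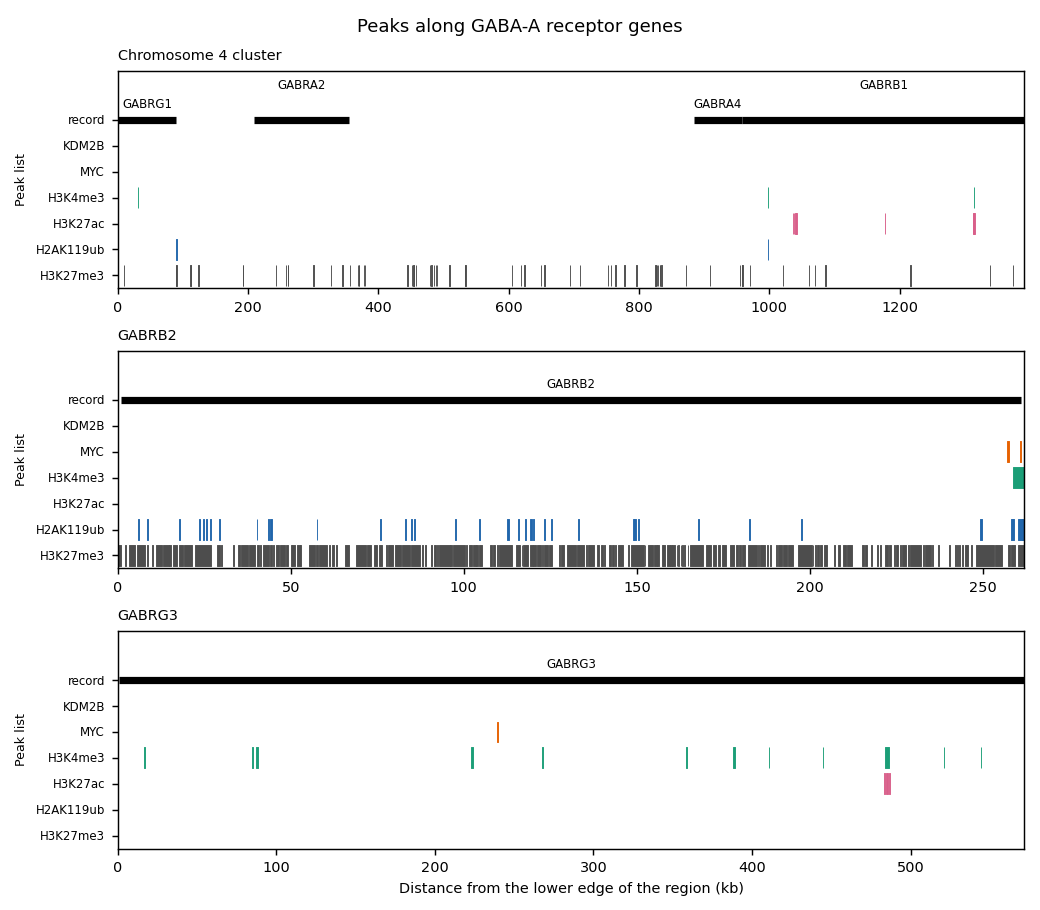
Peaks of each list (rows) along the GABA-A receptor cluster of chromosome 4, GABRB2 on chromosome 5 and GABRG3 on chromosome 15, by distance in kb from the lower edge of each region. Black bars are gene records, and narrow peaks are drawn at a minimum line width. H3K27me3 runs along most of the GABRB2 panel, is scattered in the chromosome 4 panel and is missing from the GABRG3 panel.

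The remaining GABA-A genes lay apart. GABRD (chr1:2019345-2030758), the delta subunit of receptors outside synapses, was under H3K27me3 over 86.3% and H2AK119ub over 89.7% of its record. The peaks over its upper end had folds of 4.77 and 4.14, with both summits 2968 bp outside the record. The joined domains ran on into CFAP74 for H3K27me3 and PRKCZ for H2AK119ub. GABRP, the pi subunit, which is known for expression in epithelia including breast, had H3K27me3 over 58.7% of its record and a fold of 3.47 at its start. It had 1 H3K4me3 peak, of fold 7.1, inside the record and no H3K27ac or MYC peak. The rho subunits GABRR1 and GABRR2, typical of retina, adjoin each other on chromosome 6, where H3K27me3 covered 26.6% and H2AK119ub 6.28% of 140 kb. H3K27me3 covered 45.7% of GABRR1 and 8.12% of GABRR2. GABRR3 on chromosome 3 had no peak of any list.

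Of the AMPA receptor genes, only GRIA1 carried Polycomb marks. At its start, H3K27me3 had a fold of 5.40, above 98.5% of its list, and H2AK119ub 2.77. The H3K27me3 summit lay 1919 bp inside the record. GRIA2, the subunit that sets calcium permeability, had no peak of any list over its 146 kb, and GRIA4 had none at an end. A record without any peak was found for 2 members, GABRR3 and GRIA2, against 5.16% of all genes and 1.83% of genes of at least 50 kb.

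Kainate receptor genes took every form. GRIK2 (chr6:101393708-102070083) had active marks at its start and no Polycomb peak anywhere: H3K4me3 of fold 25.0, MYC of 5.06 with its summit 32 bp from the start, and H3K27ac of 4.42. GRIK4 (chr11:120511748-120988906) had H3K4me3 of 21.4 over its start, with its summit 96 bp inside, beside an H2AK119ub peak of 2.25. The H3K27ac peak over that start, of 22.1, was 10495 bp wide and had its summit 6045 bp inside the record. GRIK3 (chr1:36795527-37034515) was the opposite case. H3K27me3 covered 97.1% and H2AK119ub 67.0% of it, with no MYC, H3K4me3, H3K27ac or KDM2B peak. H3K27me3 peaks of 4.40 and 6.5 reached within 1 kb of the start and the far end, with summits 2788 and 7247 bp inside. The joined H3K27me3 domain around GRIK3 was 734 kb long and reached CSF3R, and GRIK3 held a highest fold of 8.0 in its record.

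GRIK5 and GRIK1 completed the kainate class. GRIK5 had H3K27me3 over 57.0% of its record. Peaks of 4.13 for H3K27me3 and 3.48 for H2AK119ub reached within 1 kb of its start, with summits 2404 and 2537 bp inside, and its start region is shared with ZNF574. At the upper end of GRIK1, H3K27me3 had a fold of 2.74, above 52.4% of its list, and H2AK119ub 2.35, above 40.4%.

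Delta receptors bind cerebellin at synapses. GRID1 (chr10:85599552-86366795) had H3K27me3 over 56.2% and H2AK119ub over 24.7% of 767 kb. An H3K27me3 peak of fold 6.60, above 99.8% of the list, came within 1 kb of its upper end. That peak lay outside the record, with its summit 5277 bp beyond the end.

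KDM2B was at an end of 3 (42.9%) and MYC at an end of 4 (57.1%) of the 7 NMDA receptor genes, shares near those of all genes, 48.3% and 65.0%. Several NMDA genes lie next to other genes with active marks. GRIN1, the obligatory subunit, had KDM2B of 4.83, MYC of 10.1, H3K4me3 of 31.8 and H3K27ac of 2.42 at its upper end, where LRRC26 and TMEM210 also end. The summits of KDM2B, H3K4me3 and H3K27ac there lay 494, 503 and 459 bp from LRRC26 and 496, 505 and 461 bp from GRIN1, too close to tell them apart, and that of MYC was 208 bp from GRIN1. H3K4me3 peaks covered 78.4% of the GRIN1 record and H2AK119ub peaks 67.5%. At its lower end H3K4me3 had a fold of 2.53, H2AK119ub of 3.91 and H3K27me3 of 2.65.

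GRIN2D showed neighbour sharing most clearly. At its far end MYC had a fold of 52.1, above 99.9% of the list, with H3K4me3 of 54.2 and H3K27ac of 25.7. All 3 summits were nearest to GRWD1, a ribosome assembly gene, at 141, 124 and 123 bp. At the start of GRIN2D itself, MYC reached 2.42, H3K27ac 1.76 and H2AK119ub 4.06. The H3K4me3 peak over that start, of 47.1, was 11751 bp wide and reached KDELR1, with its summit 2997 bp outside GRIN2D.

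GRIN2C had 4 lists together inside its lower end, with summits within 1 kb of that end: KDM2B of 3.45 at 883 bp, MYC of 5.63 at 898 bp, H3K4me3 of 20.4 at 917 bp and H3K27ac of 4.14 at 896 bp. No end of another coding gene was nearer to those summits. An H2AK119ub peak of 3.14, above 87.4% of its list, also lay across that end, with its summit 1301 bp outside the record. It overlapped the MYC, H3K4me3 and H3K27ac peaks there. Polycomb marks were broad over the gene, with H2AK119ub over 74.8% and H3K27me3 over 54.4% of its 19.5 kb. The upper end, with H2AK119ub of 3.97, MYC of 2.53 and H3K27me3 of 3.22, lies beside FDXR.

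The other NMDA genes carried mainly Polycomb marks. GRIN2B, a subunit of the developing brain, had H3K27me3 over 71.3% of 445 kb and H2AK119ub over 5.08%. GRIN2A had H3K27me3 over 31.5% and an H2AK119ub peak of 3.63 at its start. GRIN3A had H3K27me3 of 2.76 at its start and a KDM2B peak of 2.64, above 23.3% of the list, inside that end. GRIN3B, on the other hand, had no H3K27me3 peak and H2AK119ub over 84.2% of its 9.31 kb, with H3K4me3 over 57.5% at folds of up to 3.79 and MYC of 2.70 at its start.

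Among metabotropic receptor genes, GRM8 (chr7:126438598-127252941) had the most complete active start. KDM2B had a fold of 4.31, above 78.4% of its list, MYC of 8.62, H3K4me3 of 34.6 and H3K27ac of 4.59. Their summits lay 748, 565, 793 and 546 bp outside the record, on the upstream side, and no end of another coding gene was nearer. H2AK119ub had a peak of 2.68 at the same end, above 67.5% of its list. Among members with an annotated start, GRM8 alone had KDM2B, MYC, H3K4me3 and H3K27ac together at the start of its record. Further inside the record it held 45 H3K27me3 peaks, which covered 2.71% of it. H3K27me3 lay within 1 kb of an annotated start of GRM8 other than the start of its record.

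GRM4 (chr6:34018643-34155622) combined KDM2B peaks of low fold with the heaviest Polycomb coverage. H3K27me3 covered 97.2% and H2AK119ub 92.4% of its record, more than in 98.6% and 99.2% of all genes. Near the start of the record, KDM2B had a fold of 2.72, above 26.3% of its list, MYC of 6.82 and H3K4me3 of 8.88. Their summits lay 858, 856 and 854 bp inside the record, and H3K27ac had no peak over the gene. The joined H3K27me3 domain was 320 kb long and touched no other coding gene.

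The other metabotropic genes had fewer peaks. GRM2 had H2AK119ub over 72.9% and H3K27me3 over 62.3% of its 11.5 kb. GRM7 had H3K4me3 of 7.17 at its start with neither MYC nor H3K27ac, and an H2AK119ub peak of 1.87. GRM3 had a single H3K4me3 peak of 2.65, 36 bp from its start, and no other peak over 221 kb. GRM6, the receptor of retinal bipolar cells, had H2AK119ub alone, of 2.27. GRM5, which is coupled to calcium release, had no peak at an end.

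Covered length describes the broad marks better than counts of peaks. Over members, the median share of the record under H3K27me3 was 2.71%, against 0% over all genes, and under H2AK119ub 0.729%, against 1.52%. H3K27me3 covered at least 50% of the record in 12 members, against 13.5% of all genes. H2AK119ub did so in 7, against 12.2%. The 5 members with most H3K27me3 were GRM4, GRIK3, GABRD, GRIN2B (71.3%) and GABRA6 (67.6%), and the 5 with most H2AK119ub were GRM4, GABRD, GRIN3B, GRIN2C and GRM2.

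The 2 Polycomb marks did not always come together. Both covered at least 50% of GABRD, GRIK3, GRIN2C, GRM2 and GRM4, or 5 members, against 5.52% of all genes. H3K27me3 covered at least 50% and H2AK119ub under 10% in another 5 members, among them GABRA6, GABRB2, GABRP and GRIN2B, against 1.90% of all genes and 1.86% of genes of at least 50 kb. GABRA6 and GABRB2 lie in the same cluster, so they are not independent. The reverse held for GRIN3B alone, against 4.66%. At gene ends, 8 members had H3K27me3 and no H2AK119ub, against 4.95%, among them GABRA2, GABRA4, GABRB1, GABRR1, GABRR2, GRIN2B and GRIN3A. H2AK119ub without H3K27me3 was at the ends of 5, GRIN2D, GRIN3B, GRM6, GRM7 and GRM8, against 24.4%. Every gene of the former group but GRIN2B and GRIN3A encodes a GABA-A subunit, and every gene of the latter a glutamate receptor. Many of these calls were weak, and GABRA4 and GABRB1 were counted on the same peaks. With q under 1e-5, GABRA2, GABRA4, GABRB1, GABRR2 and GRIN3A no longer had H3K27me3 at an end. GRM6, GRM7 and GRM8 then no longer had H2AK119ub at an end. The difference between the classes was not tested.

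**Figure D4:**
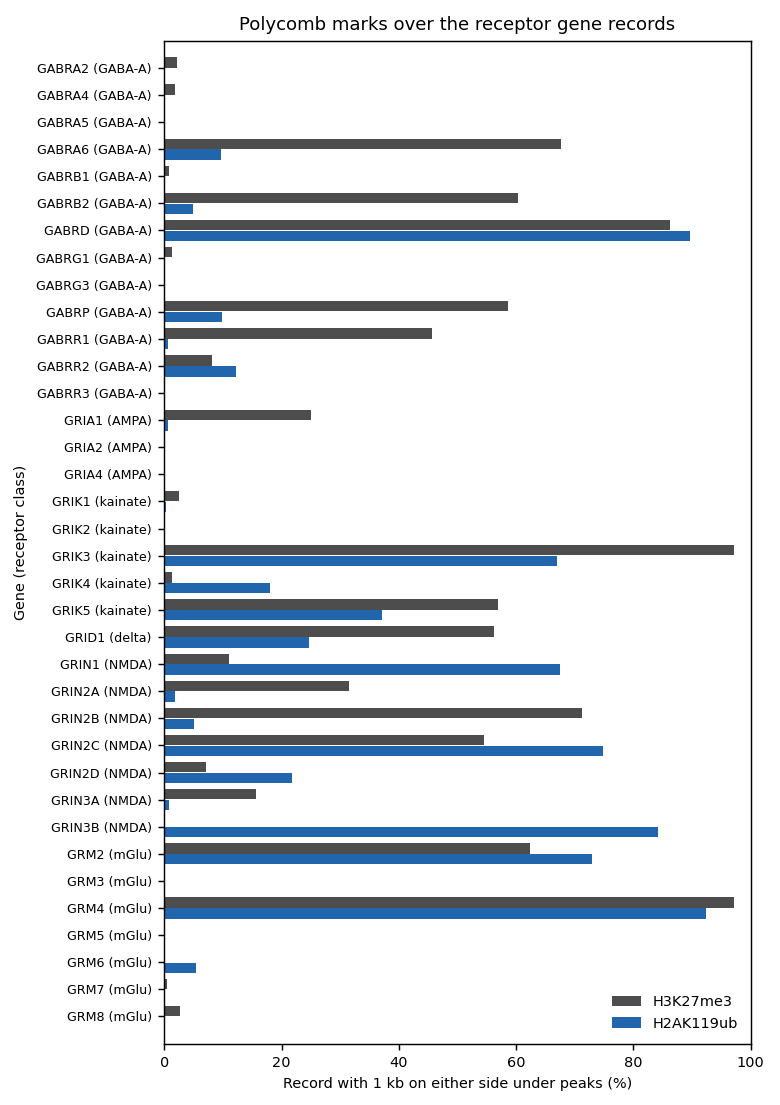
Percent of the record, with 1 kb on either side, of receptor genes reported by name under H3K27me3 (dark) and H2AK119ub (blue) peaks. Long dark bars with short blue ones mark GABRA6, GABRB2, GABRP and GRIN2B, and GRIN3B shows the reverse.

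KDM2B peaks over members numbered 12, in 8 genes. Of these, 9 overlapped MYC, 10 H3K4me3, 6 H3K27ac, 6 H2AK119ub and 5 H3K27me3. Over all 19831 KDM2B peaks of chromosomes 1 to 22 the shares were 81.8%, 78.4%, 74.2%, 24.7% and 4.92%. The 5 peaks on H3K27me3 were 3 in GRM4, 1 in GRIN3A and 1 in GRIN2D (3.14), so 3 of them share a gene. Those in GRM4 had folds of 2.02, 2.87 and 2.72, above 5.24%, 33.8% and 26.3% of the list. The GRIN3A peak overlapped H3K27me3 and no other list. The peaks in GRIK4 (3 peaks, the strongest of 4.85 and 2.88 kb inside the upper end), GRIN1, GRIN2C and GRM8 all overlapped MYC, H3K4me3 and H3K27ac.

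H3K27ac inside the records, more than 1 kb from both ends, came to 142 peaks in 17 members. None of the 142 overlapped H3K27me3, where 0.971% of all H3K27ac peaks did. MYC was overlapped by 14.1% of them, against 31.2% of the whole list, H3K4me3 by 28.9%, against 50.7%, H2AK119ub by 19.7%, against 15.9%, and KDM2B by 1.41%, against 12.1%. Peaks near gene ends are part of the whole list, so these shares are not for like positions. GRIK4 alone held 41 of the 142. It held 24 of the 28 that overlapped H2AK119ub, 10 of the 20 on MYC and the only 2 on KDM2B. The H2AK119ub share thus rests mostly on 1 gene and does not describe the members as a set.

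GRIK4 held the most H3K27ac of any member: 42 peaks over 66127 bp, rank 76 of 19122 genes and above 98.7% of genes of at least 50 kb. The strongest, of fold 54.8 and 10170 bp wide, had its summit 53.9 kb inside the record and overlapped an internal annotated start of GRIK4 with 29 CG in 300 bases. A second, of 37.8 and 6447 bp, lay 35.5 kb inside. MYC reached 14.0 and H3K4me3 27.8 over the record. H2AK119ub was called 175 times over the same gene and covered 17.9% of it, against 1.21% for H3K27me3.

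Internal H3K27ac was found in other members as well. GRIA1 had 19 H3K27ac peaks over 18197 bp, the strongest of 28.5 at 62.7 kb. They lay between 31.8 and 143 kb from its lower end, a stretch in which H3K27me3 covered 0%, while H3K27me3 covered 25.0% of the whole record. GRM5, with no peak at its ends, had 12 peaks over 13489 bp, the strongest of 21.7. GRID1 had an H3K27ac peak of 23.6 at 43.9 kb, GRIK5 of 24.6 at 19.3 kb, GRIK1 of 20.6 at 120 kb and GRIK2 of 15.9 at 412 kb. GRM8 (7 peaks over the record, up to 14.5), GRIN2A (13, up to 11.1), GRIA4 (4, up to 8.67) and GRM7 (3, up to 6.79) had lower ones. In GRIN2A and GRID1 the acetylated sites lay scattered among H3K27me3, which covered 31.8% and 50.7% of the stretch between the first and last H3K27ac peak. In GRIK5 H3K27me3 covered 0% of that stretch, between 12.5 and 25.2 kb from the lower end, and 57.0% of the record. Whether these belong to the receptor genes or to other genes was not tested, since the lists hold no transcripts or contacts.

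**Figure D5:**
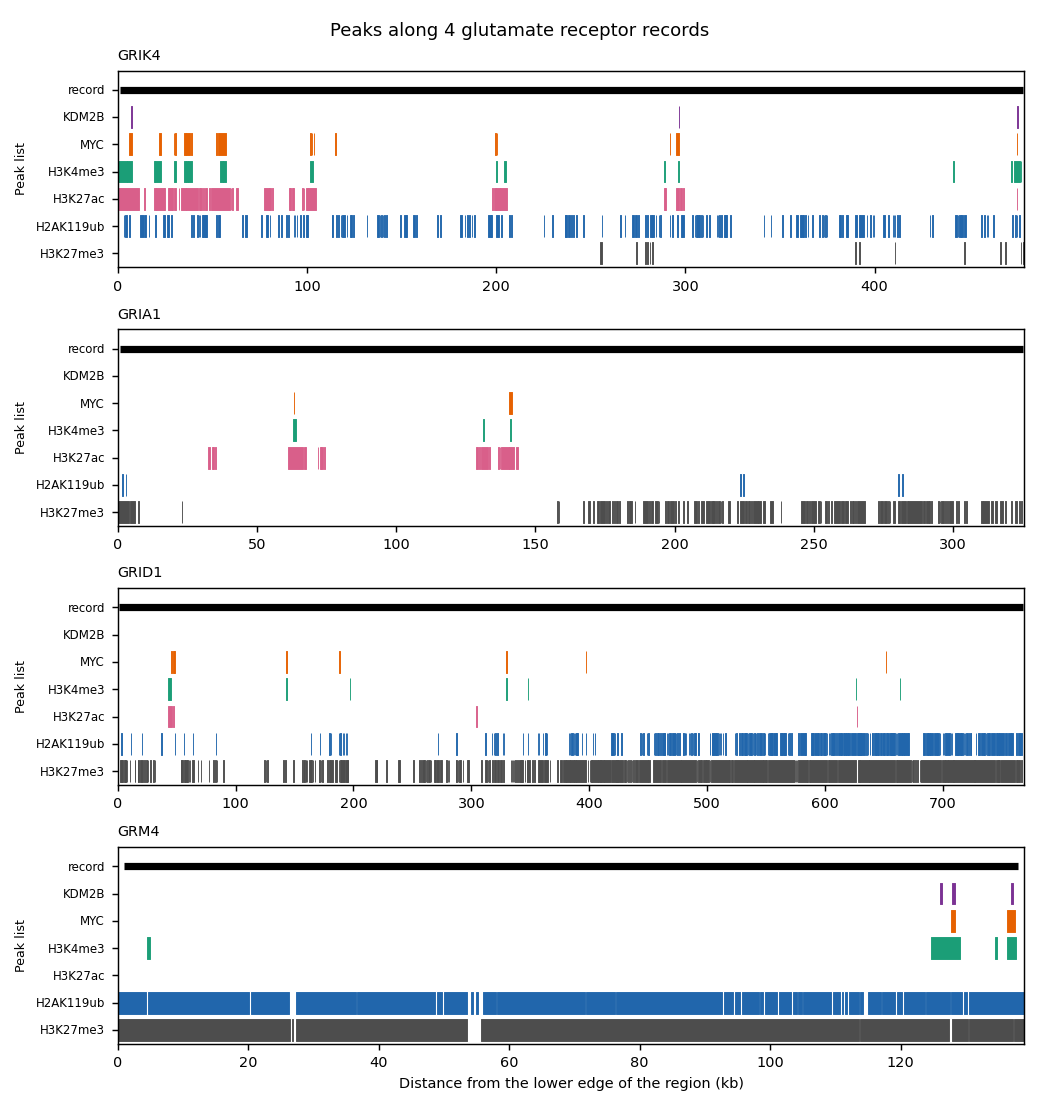
Peaks of each list (rows) along GRIK4, GRIA1, GRID1 and GRM4, by distance in kb from 1 kb below the lower record end, with narrow peaks drawn at a minimum line width. In GRIA1, H3K27ac lies in a stretch free of H3K27me3. In GRM4, both Polycomb marks fill the record and KDM2B, MYC and H3K4me3 sit near the start.

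Annotated starts were in the RefSeq table for 30 of the 41 members, with 47 starts. In the 300 bases from 250 before to 50 after a start, members had a median of 12 CG (1 to 49), against 21 over 21155 coding starts. KDM2B lay on 0 of the 47 windows, against 31.8%, MYC on 4, against 59.8%, H3K4me3 on 12, against 66.9%, and H3K27ac on 5, against 60.4%. H2AK119ub lay on 12, against 18.2%, and H3K27me3 on 17, against 14.5%. KDM2B peaks within 1 kb of an annotated start, found at GRM8, GRM4 and GRIN3A, lay outside these 300 bases.

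Windows rich in CG were found in every state. The windows of GRIK2 (33 CG), GRM8 (34) and GRIK4 (49) carried active marks, GRIK3 (37) and GABRA4 (32) H3K27me3, and GABRA2 (30), GABRG3 (27), GRM2 (34) and an internal start of GRIA2 (44) no list. Polycomb peaks did lie within 1 kb of the starts of GRM2 (H2AK119ub) and GABRA2 (H3K27me3), outside these windows. The CG-poor windows of GABRA6 (3), GABRP (5) and GABRR1 (3 and 5) lay under H3K27me3, and that of GABRR3 (2) under none. The letters CACGTG, the same on both strands and the core that MYC binds, occurred in 2 of the 47 windows, 1 each of GRM4 and GRM5, or 4.26%, against 8.25% of all windows. No MYC peak lay on either window.

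Another 59 genes of GABA and glutamate signalling were listed. At their ends, KDM2B was found at 26, H3K27ac at 25 and H3K27me3 at 31. MYC was at 27, against 65.0% of all genes, H3K4me3 at 34, against 70.1%, and H2AK119ub at 40, against 46.6%. KDM2B was thus at 44.1% of them, near the 48.3% of all genes, where the receptor genes had 12.2%. H3K27ac was at 42.4%, against 64.4% of all genes and 14.6% of receptor genes, and H3K27me3 at 52.5%, against 27.1% and 61.0%. The difference between these genes and the receptor genes was not tested. High H3K27ac folds were found at genes with general roles. They were 65.0 at DLG1, a scaffold of cell polarity, 57.7 at GLUD1, which oxidises glutamate, and 49.2 at GABARAP, an autophagy protein that also binds GABA-A receptors.

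H3K27me3 covered at least 50% of the record in 19 of the 59, or 32.2%, against 13.5% of all genes, and neuronal genes were found on both sides. It covered 93.6% of GAD2, which makes GABA, 94.1% of SLC32A1, which loads it into vesicles, and 93.3% of SLC6A11, which takes it up. GAD1, the other enzyme that makes GABA, had 0% under H3K27me3 and 15.5% under H3K27ac. Of the vesicular glutamate transporters, SLC17A6 had 77.2% under H3K27me3 and SLC17A8 39.1%, and of the uptake carriers SLC1A6 had 90.0%, SLC1A2 4.54% and SLC1A3 0%. CACNG2 and CACNG3, auxiliary subunits of AMPA receptors, had 72.7% and 78.3%, with folds of 6.41 and 6.35 at an end. The 2 subunits of the GABA-B receptor, which work only as a pair, differed. GABBR1 had KDM2B of 2.86, MYC of 7.88, H3K4me3 of 27.8 and H3K27ac of 8.90 and no Polycomb peak at an end, while GABBR2 had H3K27me3 of 4.31, H2AK119ub of 4.59, H3K4me3 of 11.8 and KDM2B of 3.48, with no MYC or H3K27ac.

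As a check of the cells, VIM, CD44 and AXL, genes of mesenchymal breast cancer cells, had H3K4me3 of 48.3 to 55.0 and H3K27ac of 61.5 to 104 at their ends. ESR1 had no peak of any list there, PGR had H3K4me3 of 13.9 without H3K27ac, and CDH1 had H2AK119ub alone. GATA3, EPCAM and KRT19, which are genes of luminal or epithelial cells, had both active marks. Over the 6 lists, peaks numbered from 20018 for KDM2B to 306484 for H3K27me3.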

How the data were processed

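ChIP-seq peak lists of MDA-MB-231 were analysed, 1 per target. Chromatin was cut enzymatically (per the labels' protocols). Reads went through Trim Galore, SAMtools 1.6, Bowtie2 2.4.5 and MACS2 2.2.7.1 on build hg38, per the submitters' processing notes, which give no order. The control, any pooling of libraries, and the version of Trim Galore are not given in the sources used here. The deposited fold (a ratio over background), the deposited −log10 q-value and the deposited score (10 times −log10 q in whole numbers) are the authors' values and were used only within a list. The deposited summit is a distance within the peak. No counts are in the lists, so depth is unknown. Narrow-peak calls can split a broad domain.

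Records came from RefSeq GRCh38.p14, without strand, and starts from its promoter table, which matched 30 of 41 members. Among the rest were GABRA5, GABRD, GRID1, GRIK1, GRIN1 and GRIN2C, whose ends are called lower and upper. Some members and other genes enter the counts and are not reported here by name or drawn in gene by gene figures. Overlap meant at least 1 bp. Tables were made with Python 3.11.15 and pandas 2.3.3, and the overlap code was tested on simulated data. The members and gene lists were chosen with earlier results of these data known. Named in full were members with KDM2B, MYC, H3K4me3 or H3K27ac at an end, the 5 with most of each Polycomb mark, those with no peak at an end, and clusters. Other pathway genes were to be up to 6 of highest fold; others named for their role were picked with values in view. Alternatives changed the window, the peaks kept, the overlap, the side of the gene and the joining of peaks.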

Additional observations from a re-analysis of the deposited data

How the results depend on the processing

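Of 72 alternative values, 54 stayed within 1.5 times the value given above and 18 did not. Windows of 500 bp left KDM2B at the ends of 2 members, GRIN1 and GRM8, against 45.3% of all genes. Within 1 kb of annotated starts only, which 30 members have, KDM2B was at 3 members and H3K27me3 at 14. Keeping the 15000 peaks of highest fold left at gene ends 4 members with MYC, 7 with H3K4me3, 2 with H3K27ac, 8 with H2AK119ub and 5 with H3K27me3. The shares of all genes were then 54.0%, 63.6%, 47.7%, 11.2% and 6.61%. Over records the same setting left 6 members with MYC, 8 with H3K4me3, 9 with H3K27ac, 12 with H2AK119ub and 13 with H3K27me3. With q under 1e-5, H2AK119ub was at the ends of 13 members, against 29.7% of all genes, which is near the background. The median share of the record was then 0% for H2AK119ub and 1.25% for H3K27me3. Joining peaks across 3 kb raised those medians to 1.51% and 6.26%. Apart from the joining and the annotated starts, each of these settings keeps fewer peaks or less sequence. Annotated starts can lie inside a record. They added members that the record ends did not give, such as GRIK4 for MYC, GABRB1 for H3K4me3 and GRM8 for H3K27me3. Keeping only peaks whose summit was nearest to an end of the member, a choice made after seeing the data, gave 4 members with KDM2B, 8 with MYC, 12 with H3K4me3, 5 with H3K27ac, 22 with H2AK119ub and 25 with H3K27me3. Shares of all genes are not given for annotated starts, for whole records under these settings or for the nearest summit. Those counts therefore cannot be set against a background. No paired analysis was possible because each list holds no separate libraries, and for the same reason no library could be left out.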

Other observations

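Relatives on chromosome X were outside the set. GABRE, the epsilon subunit of the GABA-A receptor, had KDM2B of fold 3.06, MYC of 7.12, H3K4me3 of 26.2 and H3K27ac of 11.7 at its ends and no Polycomb peak, a combination that no GABA-A receptor gene of chromosomes 1 to 22 had. GRIA3, an AMPA receptor subunit, had H3K4me3 of 3.90 at an end and no other list there. GABRA3 and GABRQ, which lie near GABRE, had no peak of any list at an end.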
